A study of Rattus norvegicus with 20 samples.

Results

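Chemokines and chemokine receptors were read across 5 pieces of brain and spinal cord from rats with a cervical injury. The genes were every row of the expression table named Ccl, Cxcl, Ccr, Cxcr or Xcr with a number, together with Xcl1, Cx3cl1 and Cx3cr1. This gave 52 genes, 34 ligands and 18 receptors, among 30443 rows, and no symbol was repeated. Of these, 32 genes (23 ligands and 9 receptors) reached 1 FPKM in at least 1 of the 20 libraries and were tested among 15210 genes. FPKM counts sequenced fragments scaled by transcript length and by the fragments mapped in the library, and 0.1 is the lowest value the table holds.

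The study asked what 1 week of motor cortex stimulation changes in the injured nervous system. Its 4 animals were wild-type adult female Long-Evans rats of about 6 to 8 months and 275 to 350 g. In all 4, a contusion of 0.7 mm displacement was made on 1 side at cervical level 4, and an electrode array was placed in the opposite motor cortex 2 weeks later. The 2 stimulated animals then received pulses for 1 week, 5 hours a day at 10 Hz, at 80% of the current that moved the forelimb, while the 2 control animals were connected with no current. Every group thus carried both the injury and the implant, and the comparisons hold no uninjured animal.

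Each animal gave 5 libraries. Region 1 was white matter under the implant and region 2 its counterpart in the other hemisphere. Regions 3, 4 and 5 were cord rostral to the injury, at the lesion and caudal to it. The libraries were alike in overall level, with median log2 FPKM from 2.23 to 2.69 over the tested genes and 12497 to 13546 genes at 1 FPKM or more. The white matter pieces also held RNA of cortical neurons, since Slc17a7, the vesicular glutamate transporter of cortical excitatory neurons, stood at 225 to 329 FPKM there and at 0.318 to 11.8 FPKM in cord. Mbp, a myelin gene, was at 385 to 1480 FPKM in the pieces labelled white matter and at 3840 to 5810 FPKM in cord. In pieces of bulk tissue, fewer cells of a type and less RNA per cell cannot be told apart.

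Chemokines are small secreted proteins that steer migrating cells along gradients, and their receptors are G protein-coupled receptors of leukocytes, glia and neurons. Most inflammatory chemokines are shared among several receptors, whereas Cx3cl1 and its receptor Cx3cr1 form a private pair. In the nervous system, neurons make membrane-bound Cx3cl1 and microglia carry Cx3cr1, and Cxcl12 with Cxcr4 guides developing neurons and blood cells. After injury, Ccl2 and its relatives draw monocytes, and the Cxcr2 ligands Cxcl1, Cxcl2 and Cxcl3 draw neutrophils.

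Few of the family were abundant. Only 6 of the 52 genes were at 1 FPKM or more in all 20 libraries, among them the ligands Cxcl14, Cx3cl1, Ccl27 and Cxcl12 and the receptor Cx3cr1. A mean of 1 FPKM or more was reached by 16 ligands and 4 receptors. The most abundant ligands were Cxcl14 (mean 54.0 FPKM) and Cx3cl1 (39.8 FPKM), and abundant receptors were Cx3cr1 (28.4 FPKM) and Cxcr4 (5.12 FPKM). Of the 32 genes tested, 16 reached 1 FPKM in fewer than 4 libraries, and 14 reached it in libraries of stimulated animal 2 and no other. The heat map of log2 FPKM shows these 2 kinds of gene side by side.

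**Figure D1:**
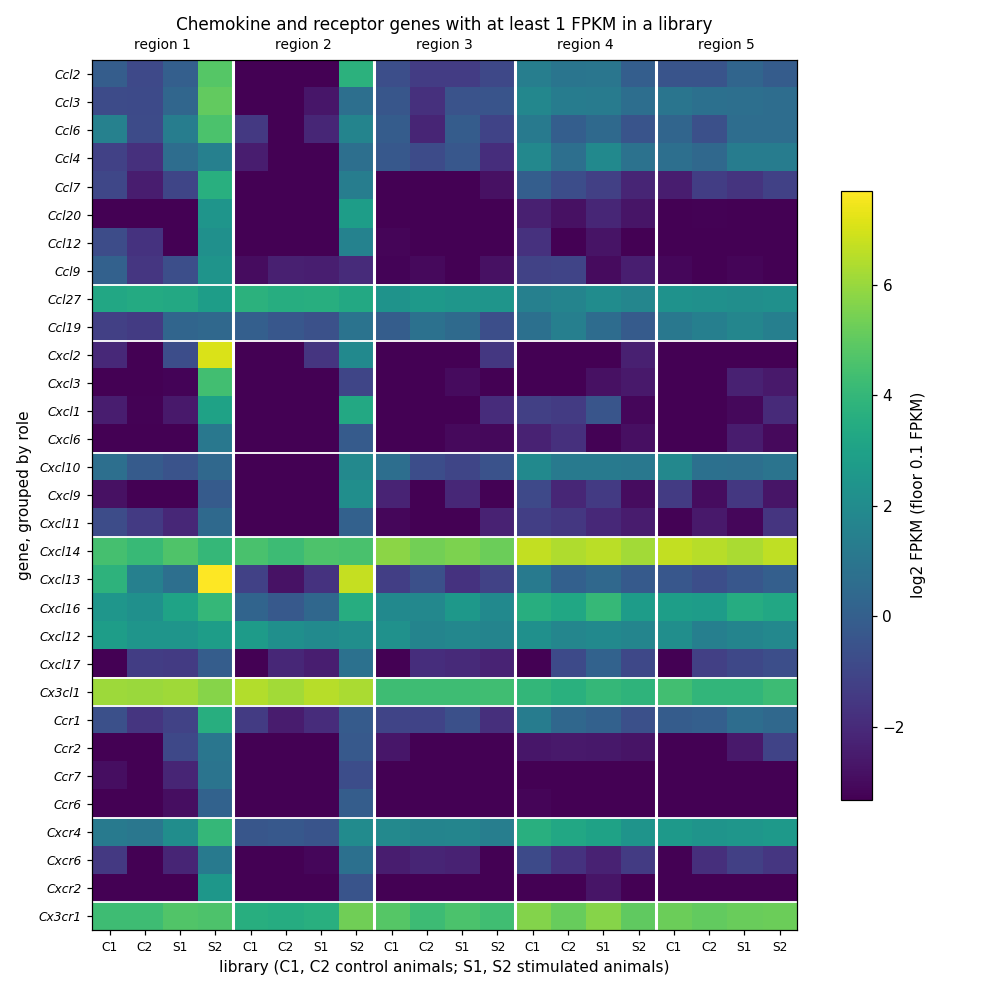
Heat map of log2 FPKM for tested genes of the family (rows, grouped by role) in the 20 libraries (columns, ordered by region; C1 and C2 are controls, S1 and S2 stimulated animals); the colour scale starts at the floor of 0.1 FPKM. Cxcl14, Cx3cl1 and Cx3cr1 are bright in every column, while Cxcl2, Cxcl13 and many inflammatory ligands are bright in S2 of regions 1 and 2.

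The other 20 genes stayed under 1 FPKM in every library. Ccl11, Ccl25, Ccl26 and Xcr1 were listed at 0.1 throughout, and Ccl1, Ccl22, Ccr8 and Ccr9 were above it in 1 library each. Ccr10, the receptor of Ccl27, was above the floor in all 20 libraries but reached only 0.916 FPKM, and Ccl24, a ligand of the eosinophil receptor Ccr3, reached 0.766 FPKM. The remaining 10 (Ccl5, Ccl17, Ccl21, Ccl28, Ccr3, Ccr4, Cxcr1, Cxcr3, Cxcr5 and Xcl1) peaked between 0.144 and 0.993 FPKM. Cxcr1, a receptor of neutrophils, was listed at 0.1 in 16 libraries and above it only in region 4, at 0.806 and 0.735 FPKM in controls 1 and 2 and at 0.261 and 0.245 FPKM in stimulated animals 1 and 2.

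The white matter of stimulated animal 2 stood apart. In region 1, 27 of the 52 genes (22 of them among the 32 tested) were more than 2-fold above each of the other 3 animals in this animal, where 5.83% of the 15210 genes tested were. In region 2 the count was 30 of 52 (26 of them tested), against 9.04%. Since 14 of the tested genes passed the filter only through this animal, these counts are in part set by the filter. Control 1, control 2 and stimulated animal 1 had no such gene in either white matter region, where the shares of all genes were 0.145%, 0.118% and 0.342% in region 1 and 0.171%, 0.131% and 0.092% in region 2. In the 3 cord regions, stimulated animal 2 had 2, 0 and 2 such genes in regions 3, 4 and 5, against 0.302%, 0.158% and 0.487% of all genes.

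The Cxcr2 ligands were among the genes furthest apart. Cxcl2 in region 1 was at 0.243 and 0.1 FPKM in controls 1 and 2, at 0.607 FPKM in stimulated animal 1 and at 134 FPKM in stimulated animal 2. In region 2 it was listed at 0.1 in both controls and was at 0.326 and 3.81 FPKM in stimulated animals 1 and 2. Cxcl3 reached 20.7 FPKM in region 1 of animal 2 with the other 3 animals at 0.1 to 0.108 FPKM, and 0.493 FPKM in region 2 with the others listed at 0.1. Cxcl1 was at 8.16 FPKM in region 1 and 10.0 FPKM in region 2 of that animal, and at 0.184 FPKM or less in the white matter of the others. The receptor Cxcr2, through which these ligands draw neutrophils, was at 5.69 and 0.720 FPKM in regions 1 and 2 of animal 2 and listed at 0.1 in the white matter of the other 3. All 4 genes were highest in animal 2 in both hemispheres, and in region 2 Cxcl3 and Cxcr2 stayed under 1 FPKM there.

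The promoters of this group are shown because several ligands that were high in this animal hold a match to the same motif. Promoters of 300 bases (250 before the start and 50 after) were taken from RefSeq on the GRCr8 build, and 39 of the 52 genes had one. The 9 letters GGGNNTTTC (N, any base), most of an NF-kB site, were searched on both strands and occurred in 4.53% of all 33469 promoters. They occurred in 12 of the 39, those of the ligands Ccl9, Ccl20, Cxcl1, Cxcl2, Cxcl6, Cxcl9, Cxcl16 and Xcl1 and the receptors Ccr3, Cx3cr1, Cxcr2 and Cxcr3. The letters had been shortened by 1 base after a first search, so this count is no test against 4.53%. Xcl1, Ccr3 and Cxcr3 stayed under 1 FPKM in every library. Cxcl3, Ccl2, Ccl3, Ccl6 and Ccl7, also high in this animal, are not among the 12, for want of a promoter or of a match. Capitals mark the matches in the promoters of Cxcl1 (chr14:17479272-17479571, minus strand), Cxcl2 (chr14:17467206-17467505, minus strand) and Ccl20 (chr9:91836909-91837208, plus strand). Cxcl13 (chr14:13917871-13918170, minus strand) had no match in this window and is shown beside them as the ligand with the highest value.
Cxcl1: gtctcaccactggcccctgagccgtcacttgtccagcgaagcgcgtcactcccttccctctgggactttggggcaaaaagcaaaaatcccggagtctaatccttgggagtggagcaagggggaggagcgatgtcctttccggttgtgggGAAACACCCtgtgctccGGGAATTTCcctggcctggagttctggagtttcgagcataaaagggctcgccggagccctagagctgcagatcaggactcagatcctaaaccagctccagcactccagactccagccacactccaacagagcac
Cxcl2: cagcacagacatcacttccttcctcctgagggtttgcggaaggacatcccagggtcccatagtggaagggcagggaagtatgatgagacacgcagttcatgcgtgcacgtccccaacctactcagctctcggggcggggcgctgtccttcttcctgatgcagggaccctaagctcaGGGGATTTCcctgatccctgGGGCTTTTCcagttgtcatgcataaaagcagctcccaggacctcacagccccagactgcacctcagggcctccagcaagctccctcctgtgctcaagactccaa
Ccl20: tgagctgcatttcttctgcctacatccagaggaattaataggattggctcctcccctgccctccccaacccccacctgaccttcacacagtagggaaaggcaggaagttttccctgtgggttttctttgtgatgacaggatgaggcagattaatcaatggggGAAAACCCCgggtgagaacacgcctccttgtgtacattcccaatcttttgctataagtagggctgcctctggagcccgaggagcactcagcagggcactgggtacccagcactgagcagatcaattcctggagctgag
Cxcl13: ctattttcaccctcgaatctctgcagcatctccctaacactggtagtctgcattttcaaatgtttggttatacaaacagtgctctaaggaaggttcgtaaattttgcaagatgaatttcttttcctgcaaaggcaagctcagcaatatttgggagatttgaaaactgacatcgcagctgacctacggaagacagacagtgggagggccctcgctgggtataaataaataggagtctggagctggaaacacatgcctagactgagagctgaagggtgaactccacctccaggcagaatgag

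The matches lay between 101 and 46 bases before the start in these 3 genes, and Cxcl1 and Cxcl2 held 2 each. The letters GAAANNGAA, part of the interferon-response element, were in 9.71% of all promoters and in 3 of the 39, those of Ccl19, Ccr2 and Cxcl10. A match describes the sequence and no binding was measured here.

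Monocyte and macrophage ligands followed the same animal. Ccl2 was at 0.950, 0.548 and 1.01 FPKM in region 1 of controls 1 and 2 and stimulated animal 1 and at 28.0 FPKM in stimulated animal 2. In region 2 those 3 animals were listed at 0.1 and animal 2 was at 13.7 FPKM. Ccl3, a ligand of Ccr1, was at 0.549 to 1.24 FPKM in region 1 of the other 3 animals and at 32.7 FPKM in animal 2, with 1.63 FPKM in its region 2. Ccl20, the ligand of Ccr6, was listed at 0.1 in the white matter of the other 3 animals and was at 5.37 and 6.98 FPKM in regions 1 and 2 of animal 2. The receptor Ccr1 reached 11.9 FPKM in its region 1 and 0.896 FPKM in its region 2, where the others were at 0.325 to 0.645 FPKM and 0.178 to 0.373 FPKM. The Ccl2 receptor Ccr2 was at 2.02 and 0.857 FPKM in regions 1 and 2 of animal 2, and at 0.524 FPKM or less in the other 3.

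Cxcl13, which draws B cells through Cxcr5, was the highest chemokine of any library. It was at 13.8 and 2.81 FPKM in region 1 of controls 1 and 2, at 1.64 FPKM in stimulated animal 1 and at 208 FPKM in stimulated animal 2. In region 2 it was at 0.144 to 0.435 FPKM in the first 3 and at 105 FPKM in animal 2. Cxcr5 itself was at 0.530 FPKM or less in every library. The Cxcr3 ligands Cxcl9 and Cxcl10, which interferons induce, were listed at 0.1 in region 2 of the other 3 animals and were at 4.33 and 3.67 FPKM in animal 2. In region 1, Cxcl10 did not separate this animal, with 1.34 FPKM between 0.702 and 1.63 FPKM in the others.

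**Figure D2:**
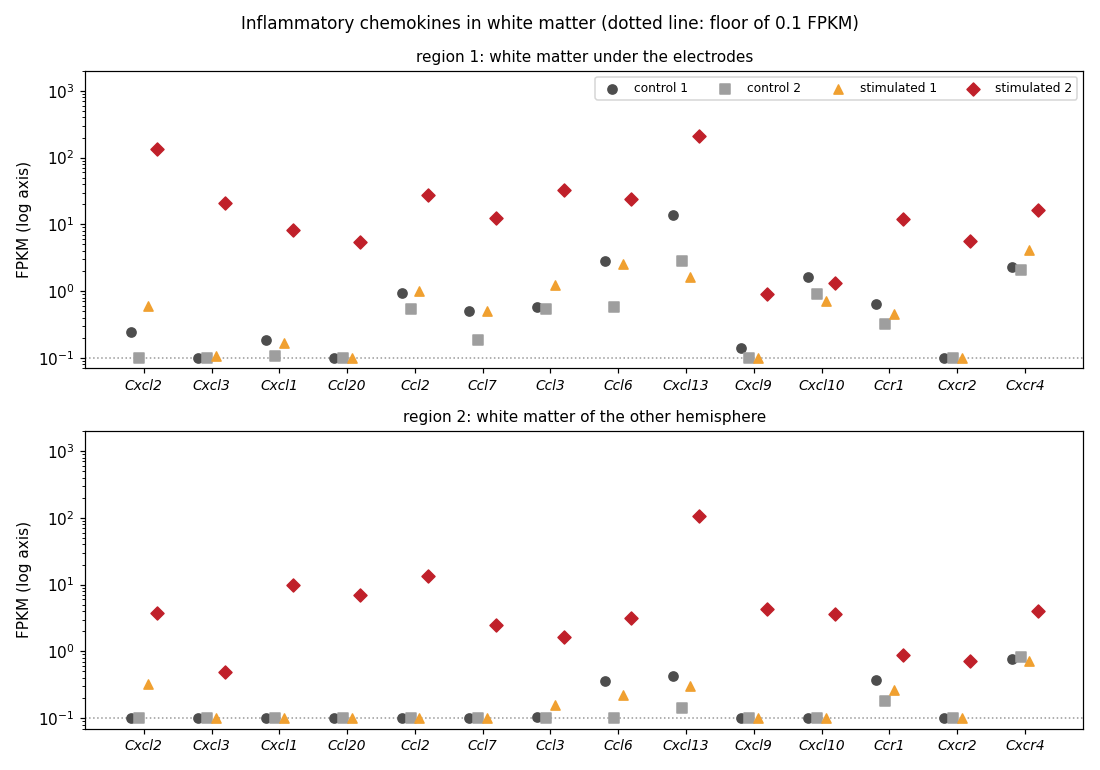
FPKM (log axis) of 14 inflammatory chemokines and receptors in white matter, with region 1 above and region 2 below, 1 point for each animal and a dotted line at the floor of 0.1 FPKM. Stimulated animal 2 is the highest point for each gene in both panels except Cxcl10 in region 1. Stimulated animal 1 is above both controls for Ccl2, Ccl3, Cxcl2, Cxcl3 and Cxcr4 in region 1 and for Ccl3 and Cxcl2 in region 2.

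Marker sums of several blood-borne cell types were also high in these 2 libraries. Of 6 neutrophil markers, 5 were highest in animal 2 in region 1, and their summed level was 113 FPKM against 0.650 to 2.04 FPKM in the other animals. That sum was nearly all S100a8 (34.5 FPKM) and S100a9 (77.4 FPKM), while Mpo was listed at 0.1. In region 2 the neutrophil sum was 8.64 FPKM against 0.709 to 0.939 FPKM, with Mpo, Camp, Ngp and Elane listed at 0.1. All 6 T cell markers were highest there in both regions, with a sum of 7.66 FPKM in region 2 against at most 0.620 FPKM. Cd8a was the largest term, at 14.9 FPKM in region 1, and rat macrophages can also express it. The 7 macrophage markers summed to 222 FPKM in region 1 and 43.3 FPKM in region 2, against 35.6 to 109 FPKM and 6.53 to 7.77 FPKM. The sum of 5 dendritic cell markers did not separate this animal. It was 4.34 and 4.94 FPKM in regions 1 and 2, against 4.08 to 4.77 FPKM and 4.69 to 5.08 FPKM. Of these markers, Clec9a and Batf3 were highest in animal 2 in both regions, Flt3 was lowest, and Cd209a was listed at 0.1. The sum of 5 fibroblast markers was 146 and 42.8 FPKM against at most 46.1 and 8.70 FPKM, although Col1a2 was listed at 0.1 in every library, which may be a failed estimate. Other cell types differed in this animal too. The sum of 4 astrocyte markers in region 2 was 929 FPKM against 209 to 259 FPKM, with Gfap at 678 FPKM against 70.1 to 91.4 FPKM. B cell markers summed to 2.80 FPKM there, with the other animals at the floor for all 5 genes (0.5 FPKM in sum), and the neuron sum in region 1 was 629 FPKM against 940 to 1040 FPKM. The part of these cells in the chemokine values was not tested.

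**Figure D3:**
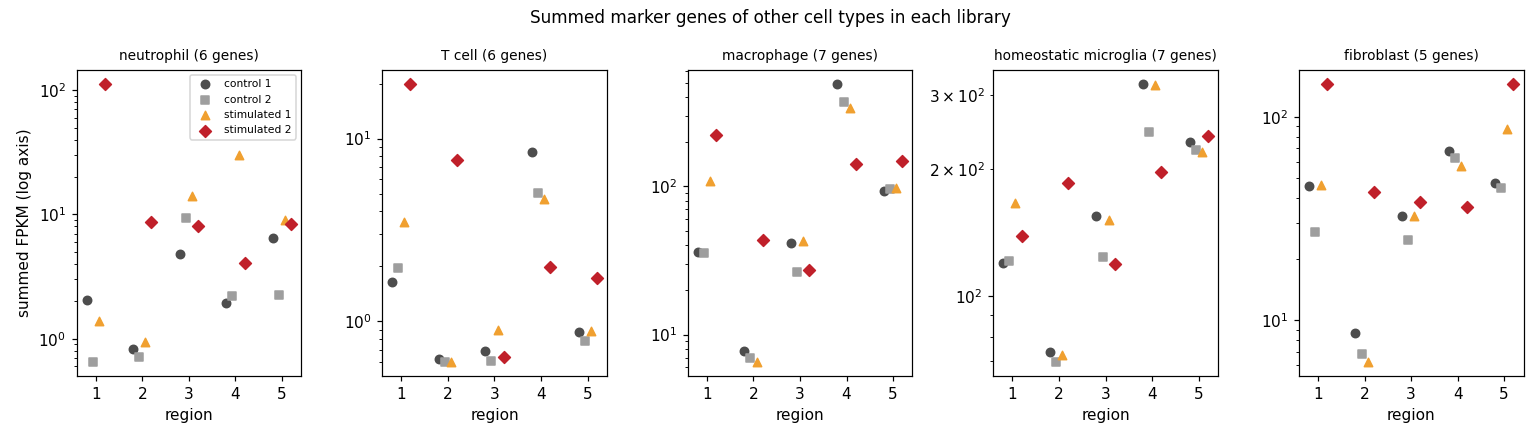
Summed FPKM (log axis) of marker genes for 5 cell types, by region, 1 point for each animal. Stimulated animal 2 is highest for the neutrophil, T cell, macrophage and fibroblast sums in regions 1 and 2, and stimulated animal 1 is highest for neutrophil markers in region 4 at 30.3 FPKM.

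Microglial genes set the 2 hemispheres of this animal apart. Cx3cr1 in region 2 was at 12.1, 11.4 and 12.5 FPKM in controls 1 and 2 and stimulated animal 1, and at 40.2 FPKM in stimulated animal 2. In region 1 the values were 19.2, 19.4, 26.4 and 24.5 FPKM in the same order. Thus animal 2 was far above the others on the side away from the implant and among them on the implanted side. The sum of 7 homeostatic microglia markers had the same form, at 186 FPKM in region 2 against 69.7 to 73.5 FPKM and at 139 FPKM in region 1 against 120 to 166 FPKM. Cx3cr1 is itself a microglial gene, and it was not in that list.

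Several abundant genes differed between white matter and cord. Cx3cl1 had a mean of 64.2 FPKM ± 8.19 (SD, n = 4) in region 1 and 82.8 ± 8.56 in region 2, against 19.5 ± 0.458, 14.9 ± 1.54 and 17.6 ± 2.77 in regions 3, 4 and 5. Every white matter value (52.3 to 92.3 FPKM) was above every cord value (12.9 to 20.8 FPKM). The log2 fold change was 2.08 (SE 0.07, adjusted p = 7.25e-15, limma, 8 libraries against 12). The 20 libraries came from 4 animals, and the fit treated them as independent. Without the 2 white matter libraries of stimulated animal 2, a choice made after seeing the data, the fold change was 2.14 (SE 0.07). The sum of 5 neuron markers was 629 to 1270 FPKM in white matter against 387 to 815 FPKM in cord. It was mostly Snap25 and Slc17a7, while Slc17a6 was lower in white matter (1.12 to 3.47 FPKM against 17.6 to 45.0 FPKM), as was Slc32a1 (8.77 to 14.1 FPKM against 14.3 to 26.0 FPKM). Their part in this difference was not tested. Ccl27, a chemokine best known from skin, followed Cx3cl1, with 6.97 to 13.5 FPKM in white matter against 2.79 to 6.14 FPKM in cord and a log2 fold change of 1.26 (SE 0.08, adjusted p = 9.23e-11), or 1.37 (SE 0.07) without those 2 libraries.

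Cxcl14, a ligand of epithelia and neurons whose receptor is not settled, had the opposite order. Its means were 20.2 FPKM ± 4.12 and 22.5 ± 2.54 in regions 1 and 2, 44.7 ± 7.51 in region 3, 88.7 ± 14.3 in region 4 and 93.8 ± 10.6 in region 5 (SD, n = 4). Regions 1 and 2 did not differ beyond their spread, nor did regions 4 and 5. The lowest cord value (37.9 FPKM) was above the highest white matter value (25.2 FPKM), and Cxcl14 in white matter was lower by a log2 fold change of -1.75 (SE 0.10, adjusted p = 6.36e-12), or -1.72 (SE 0.10) without the white matter of stimulated animal 2. Cxcl12 ran from 2.68 FPKM in region 5 of control 2 to 7.07 FPKM in region 1 of stimulated animal 2. It was higher in white matter by a log2 fold change of 0.60 (SE 0.12, adjusted p = 0.000221, limma), or 0.58 (SE 0.14) without the white matter of that animal. Every region 1 value (5.3 to 7.07 FPKM) was above every cord value (2.68 to 4.77 FPKM), while region 2 (3.87 to 6.67 FPKM) overlapped with cord.

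**Figure D4:**
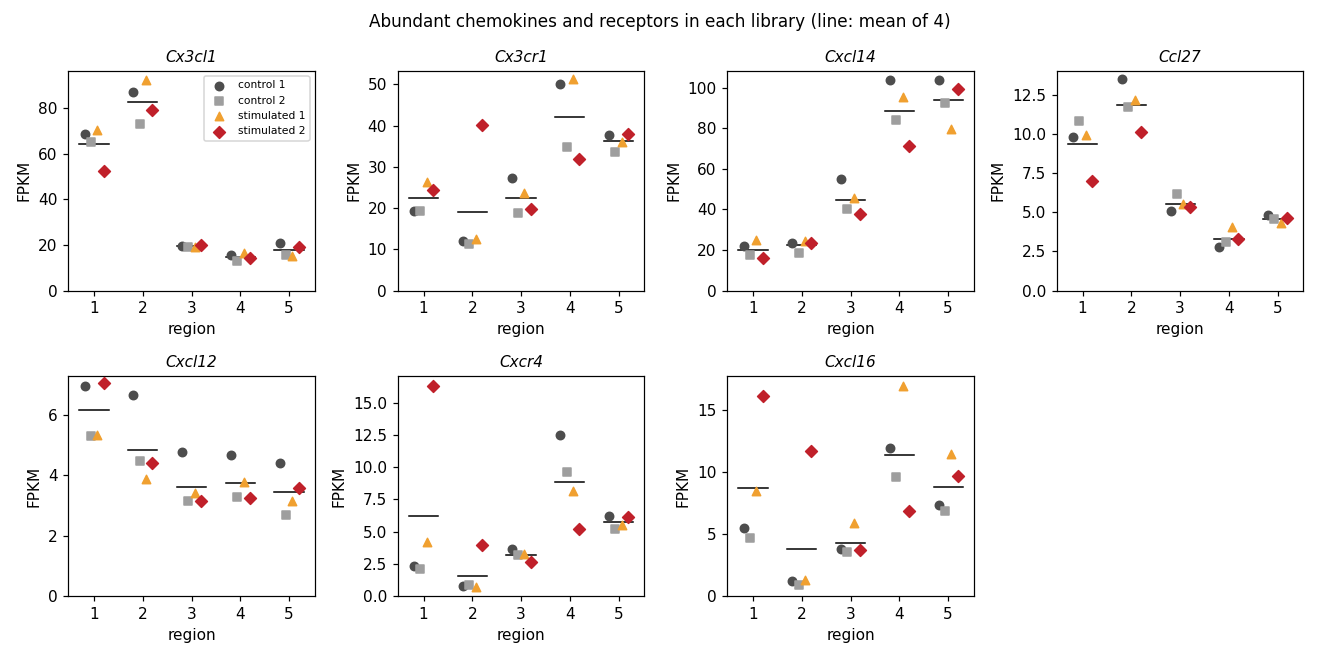
FPKM (linear axes from 0) of 7 abundant chemokines and receptors in regions 1 to 5, 1 point for each animal, with a line at the mean of 4. Cx3cl1 and Ccl27 are high in white matter and Cxcl14 in regions 4 and 5, and in region 2 the mean of Cx3cr1, Cxcr4 and Cxcl16 is drawn up by stimulated animal 2.

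Of the 32 genes, 6 were higher in white matter and 7 were lower, where 25.0% and 47.1% of all genes tested were, and the median log2 fold change of all genes was -0.18. The other higher genes were Ccl9, Ccl12 and Cxcl2, each highest in stimulated animal 2. The other lower genes were Cx3cr1 (-0.76), Cxcr4 (-1.26), Cxcl16 (-0.90), Cxcl10 (-1.62), Ccl4 (-1.64) and Ccl19 (-0.99), as log2 fold changes with adjusted p from 0.00139 to 0.0398. Quantile normalization gave 8 higher and 6 lower, where 72.8% of all genes passed in either direction, and with the animal as a replicate block, where 74.3% did, Ccr7 and Cxcl13 also passed as higher. Leaving out control 1 or control 2 gave 7 and 8 of the 32 in all, against 62.3% and 63.9% of all genes. Leaving out stimulated animal 2 gave 20 of 32, against 77.3% of all genes. Without only its 2 white matter libraries, 5 were higher and 14 lower, against 26.8% and 50.1% of all genes. Cxcl2 and Ccl12 then no longer passed, while Ccl2 (-1.67), Ccl3 (-2.17) and Ccr1 (-1.33) passed as lower in white matter, with adjusted p from 2.86e-07 to 0.00024 in limma. Ccl2, Ccl3, Ccl4 and Cxcl10 were at or near the floor in region 2 of the other 3 animals, so their folds depend on it.

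The comparison of region 1 with region 2 sets the implanted hemisphere, which always lay opposite the contused side, against the other. The implant, the side of the injury and, in the 2 stimulated animals, the current cannot be told apart in it. With all libraries, Ccl9, Cxcl16 and Cxcr4 were higher in region 1 and Cx3cl1 was lower, 3 and 1 of the 32 genes against 6.86% and 1.76% of all genes. The log2 fold changes were 2.47 (SE 0.62) for Ccl9, 1.96 (SE 0.59) for Cxcl16, 1.86 (SE 0.55) for Cxcr4 and -0.37 (SE 0.11) for Cx3cl1, with adjusted p from 0.0207 to 0.0496 (limma). With the animal as a replicate block, 6 genes were higher and 1 was lower, where 12.2% of all genes passed, Ccl3, Ccl6 and Cxcl12 being the additions. Leaving out control 1, control 2 or stimulated animal 1 left 0 of the 32 under the threshold, where 0.625%, 0.638% and 0.171% of all genes passed.

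Without the white matter of stimulated animal 2 the same comparison held 14 higher genes and 0 lower ones, against 19.5% and 2.38% of all genes. Cx3cl1 no longer passed (log2 fold change -0.30, adjusted p = 0.0838, limma). Cxcl16, a transmembrane ligand that also binds oxidized lipoprotein, was at 5.49, 4.65 and 8.48 FPKM in region 1 of controls 1 and 2 and stimulated animal 1, and at 1.19, 0.843 and 1.28 FPKM in region 2. All 3 values of region 1 were above all 3 of region 2, and the log2 fold change was 2.47 (SE 0.31, adjusted p = 6.2e-05, limma). Cxcr4 was at 2.33, 2.06 and 4.18 FPKM against 0.782, 0.827 and 0.723 FPKM in the same animals (log2 fold change 1.81, SE 0.27, adjusted p = 0.000206, limma). Cx3cr1 was higher by 0.84 (SE 0.18). Ccl2, Ccl7, Cxcl10 and Cxcl11 were above the floor in region 1 of all 3 animals and listed at 0.1 in region 2 of all 3, so no fold is given for them. Ccl3, Ccl4, Ccl6, Ccl9, Ccl12 and Cxcl13 passed as well. The macrophage sum moved with these genes, at 35.6 to 109 FPKM in region 1 and 6.53 to 7.77 FPKM in region 2 of the 3 animals. Most of it was Gpnmb, at 21.2 to 88.3 FPKM and 3.15 to 3.71 FPKM. Fibroblast markers moved likewise, at 27.2 to 46.1 FPKM and 6.23 to 8.70 FPKM. Their part was not tested.

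At the lesion, Cxcl14 and Cx3cr1 were higher than in rostral cord, and Ccl27 and Cx3cl1 were lower. Cxcl14 was at 54.9, 40.4, 45.6 and 37.9 FPKM in region 3 of controls 1 and 2 and stimulated animals 1 and 2, and at 104, 84.1, 95.5 and 71.1 FPKM in region 4. The ranges did not overlap, and the log2 fold change was 0.99 (SE 0.15, adjusted p = 0.000399, limma). Cx3cr1 was at 27.4, 18.7, 23.7 and 19.7 FPKM in region 3 and at 50.2, 34.9, 51.3 and 31.8 FPKM in region 4 (log2 fold change 0.89, SE 0.29, adjusted p = 0.0384). Ccl27 fell by 0.74 (SE 0.13) and Cx3cl1 fell by 0.40 (SE 0.11) on the log2 scale. In all 4 animals each of these genes moved in its own direction, and the private ligand and its receptor, Cx3cl1 and Cx3cr1, changed oppositely. The neuron sum was also lower at the lesion, at 387 to 486 FPKM against 626 to 815 FPKM in region 3, beside the lower Cx3cl1 and Ccl27, and its part was not tested. Over all genes 6.78% were higher and 12.8% lower, against 2 and 2 of the 32. Quantile normalization gave 4 higher and 2 lower, where 31.8% of all genes passed, and with the animal as a replicate block, where 24.0% did, Ccl4 passed as higher too. Leaving out control 1 or control 2 left 2 genes, Cxcl14 and Ccl27, against 6.41% and 3.44% of all genes, and Cx3cl1 then had an adjusted p of 0.0767 and 0.165 (limma). Cx3cr1 did not pass when control 1, control 2 or stimulated animal 1 was left out, and leaving out stimulated animal 2 gave 17 of 32, against 32.3% of all genes.

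Stimulated animal 2's white matter also entered the spread that this fit shares among regions. With only the 12 cord libraries, chosen after seeing the data, 15 genes were higher at the lesion than rostral to it and 2 were lower, against 14.1% and 17.3% of all genes. The median of the 32 was 0.94 and that of all genes was -0.02 on the log2 scale. The 2 that fell were again Ccl27 and Cx3cl1. The monocyte ligand Ccl2 was at 0.630, 0.392, 0.386 and 0.523 FPKM in region 3 of controls 1 and 2 and stimulated animals 1 and 2, and at 2.66, 1.94, 1.98 and 0.992 FPKM in region 4. The lowest lesion value was above the highest rostral value, with a log2 fold change of 1.92 (SE 0.29, adjusted p = 0.000836, limma).

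Ccl3, a ligand of Ccr1, rose with that receptor in that fit, as did the related ligand Ccl4. Ccl3 was at 0.761, 0.289, 0.697 and 0.717 FPKM in region 3 and at 3.45, 2.45, 2.37 and 1.60 FPKM in region 4 of the same animals (log2 fold change 2.05, SE 0.31, adjusted p = 0.000789, limma). Ccl4 rose by a log2 fold change of 2.15 (SE 0.40) and Ccr1 by 1.46 (SE 0.38). Cxcr4 was at 3.68, 3.17, 3.24 and 2.60 FPKM in region 3 and at 12.5, 9.62, 8.18 and 5.17 FPKM in region 4. Its log2 fold change was 1.42 (SE 0.22, adjusted p = 0.000902), while its ligand Cxcl12 was at a log2 fold change of 0.06 (SE 0.18) and did not pass. Cxcl16 (1.37), Cxcl10 (1.76) and Cxcl13 (1.55) also rose, with 4 of 4 animals higher at the lesion for each. Ccl9, Cxcl11, Ccl7 and Ccl20 passed too, each at or near the floor in region 3.

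**Figure D5:**
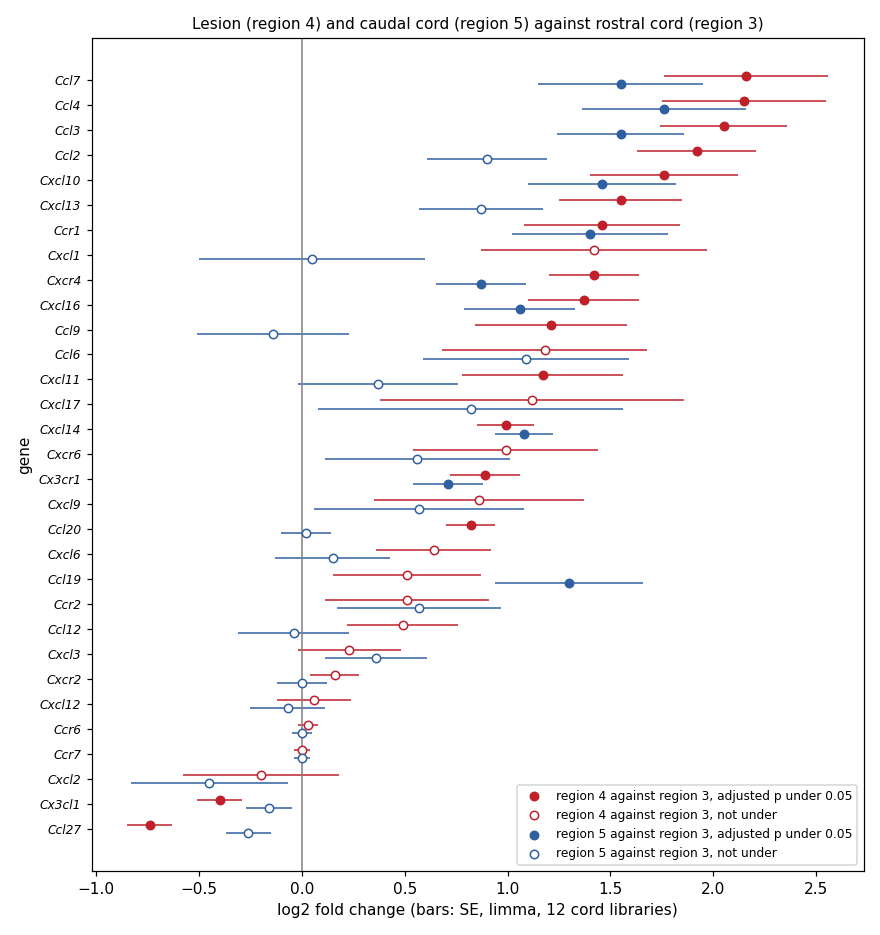
Log2 fold change with its SE (limma, 12 cord libraries) of tested genes of the family at the lesion (red) and in caudal cord (blue) against rostral cord, with filled points at adjusted p under 0.05. At the lesion most filled points lie to the right of 0, with Ccl7 and Ccl4 furthest, and 2, Ccl27 and Cx3cl1, lie to the left.

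The macrophage sum separated the cord regions in the same way, with 26.6 to 43.0 FPKM in region 3, 142 to 495 FPKM in region 4 and 93.9 to 149 FPKM in region 5. Gpnmb made up most of it (120 to 434 FPKM in region 4), and Arg1 went the other way, at 2.70 to 3.70 FPKM in region 3 and 1.47 to 2.31 FPKM in region 4. The lesion library of stimulated animal 2 had the lowest of the region 4 sums, and it also had the lowest lesion values of Ccl2, Ccl3, Cxcr4 and Cx3cr1 given above. Microglia markers summed to 119 to 155 FPKM, 197 to 320 FPKM and 220 to 240 FPKM in regions 3, 4 and 5. The part of either cell type was not tested. Leaving out only the 2 white matter libraries of stimulated animal 2 gave 16 higher and 2 lower at the lesion against rostral cord, where 15.0% and 18.7% of all genes were.

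Caudal cord lay between the lesion and rostral cord for most of these genes. With all libraries, Cxcl14 alone rose in region 5 against region 3 (log2 fold change 1.08, SE 0.15, adjusted p = 0.00066, limma), 1 of 32 where 2.77% of all genes were higher, and 0 were lower against 1.55%. Quantile and upper-quartile scaling each gave 1 higher and 1 lower, against 7.29% and 7.69% of all genes in either direction, and leaving out stimulated animal 2 gave 4 higher, against 8.13%. With only the cord libraries 11 rose and 0 fell, against 13.1% and 3.81%, among them Ccl19, a ligand of Ccr7. Ccl19 was at 0.959, 1.72, 1.41 and 0.629 FPKM in region 3 and at 2.13, 2.74, 3.37 and 2.70 FPKM in region 5 of controls 1 and 2 and stimulated animals 1 and 2 (log2 fold change 1.30, SE 0.36, adjusted p = 0.033, limma). Its receptor Ccr7 was listed at 0.1 in all 12 cord libraries. Leaving out only the white matter of stimulated animal 2 gave 12 higher and 0 lower, against 15.1% and 4.81%.

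Between the lesion and caudal cord, only Ccl27 passed with all libraries, lower at the lesion by a log2 fold change of -0.48 (SE 0.13, adjusted p = 0.0349, limma). This was 1 of 32 lower against 7.06% of all genes, and 0 higher against 0.934%. It did not pass under quantile or upper-quartile scaling, where 3.09% and 4.12% of all genes did, nor without control 1 or control 2, where 0.0329% and 0.145% did. Leaving out stimulated animal 2 gave 6 of 32, against 7.21%. With only the cord libraries, Ccl2 (1.01, SE 0.29), Ccl9 (1.34, SE 0.37) and Ccl20 were higher at the lesion and Ccl27 was lower, against 1.94% and 14.2% of all genes. Leaving out only the white matter of stimulated animal 2 gave the same counts, 3 and 1, against 2.79% and 19.0%.

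The main question of the study was the effect of stimulation, and no chemokine or receptor passed in any region. In limma with 2 stimulated and 2 control libraries a region, 0 of 32 genes had an adjusted p under 0.05, and at an unadjusted p under 0.05 there were 5, 0, 1, 5 and 6 in regions 1 to 5. Over all 15210 genes, those unadjusted shares were 5.44%, 1.41%, 3.43%, 2.24% and 3.59%. Adjusted calls over all genes were 0.0% higher and 0.0% lower in regions 1 to 4, and 0.00657% higher and 0.0131% lower in region 5.

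In region 1 the smallest p-values belonged to Ccl19, Ccl4 and Ccr2. Ccl19 was at 0.421 and 0.375 FPKM in controls 1 and 2 and at 1.21 and 1.33 FPKM in stimulated animals 1 and 2 (log2 fold change 1.67, SE 0.20, adjusted p = 0.712, limma). Ccl4 was at 0.437 and 0.288 FPKM in the controls and at 1.55 and 2.75 FPKM in the stimulated animals (log2 fold change 2.54, SE 0.41, adjusted p = 0.712, limma). For both genes each stimulated animal was above both controls. Ccr2 was listed at 0.1 in both controls and was at 0.524 and 2.02 FPKM in the stimulated animals. Cx3cr1, at 19.2 and 19.4 FPKM in controls and 26.4 and 24.5 FPKM in stimulated animals, had a log2 fold change of 0.40 (SE 0.10, adjusted p = 0.712, limma).

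The groups did not overlap in region 1 for 15 of the 52 genes (12 of the 32 tested), which were higher in both stimulated animals, where 21.2% of the 15210 genes tested were. None was lower, against 19.5%. Shares over all genes in the next paragraphs are likewise over the genes tested. The sum of macrophage markers was also higher in both stimulated animals, at 109 and 222 FPKM against 35.6 and 36.3 FPKM. In stimulated animal 1 this was Gpnmb (88.3 FPKM) and Cd68 (13.9 FPKM), and the other 5 markers lay between the controls. The part of these cells was not tested. Without stimulated animal 2, 1 gene (Ccr2) passed in region 1, against controls at the floor, where 0.0986% of all genes passed. Without stimulated animal 1, 7 of 32 passed as higher, where 1.5% of all genes passed, and 14 of the 32 had met the filter only through animal 2.

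In region 2, 8 of the 52 genes (6 of the 32 tested) were higher and 1, Cxcl12, was lower in both stimulated animals, against 20.2% and 6.77% of all genes. Cxcl12 was at 6.67 and 4.47 FPKM in controls 1 and 2 and at 3.87 and 4.40 FPKM in stimulated animals 1 and 2 (log2 fold change -0.40, SE 0.25, adjusted p = 0.949, limma). Cxcl16 had a log2 fold change of 1.95 (SE 1.23) and Cxcl2 of 3.48 (SE 1.34), and in both the stimulated animals lay far from each other. Without stimulated animal 1, 20 of 32 passed as higher in region 2, where 3.6% of all genes passed, again with 14 that met the filter only through animal 2. Without stimulated animal 2 only Cxcl2 did, where 0.0657% of all genes passed. The effect of stimulation in region 1 less that in region 2, tested within animals, passed for 0 genes in limma, with 6 at an unadjusted p under 0.05 against 3.78% of all genes. Cxcl13 had the smallest p (log2 difference -2.93, SE 0.57, adjusted p = 0.884, limma).

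In rostral cord, 3 of the 52 genes (2 of the 32 tested) were higher in both stimulated animals and 0 were lower, against 5.14% and 24.7% of all genes. The 3, Ccl5, Cxcl3 and Cxcl6, were all under 0.3 FPKM there. Among genes with a mean of 1 FPKM, Cxcr4 (log2 fold change -0.23, SE 0.18) and Cxcl16 were among those with the smallest p-values, and neither passed. Cxcl16 was at 3.80 and 3.54 FPKM in controls and at 5.89 and 3.71 FPKM in stimulated animals 1 and 2. In both the groups overlapped.

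At the lesion the direction was the other one. Of the 52 genes, 13 were lower in both stimulated animals than in both controls and 2 were higher. Of the 32 tested, 8 were lower and 2 higher, where 7.69% and 12.5% of the genes tested were. Of the lower genes, Ccl5, Ccl7, Ccl9, Ccl24, Ccr10, Cxcl6, Cxcl11, Cxcr1 and Cxcr3 were under 1 FPKM in every library of region 4. Cxcl3, among the higher ones, was at 0.169 FPKM or less there. The lower genes included Cxcr4, at 12.5 and 9.62 FPKM in controls and at 8.18 and 5.17 FPKM in stimulated animals 1 and 2 (log2 fold change -0.75, SE 0.29, adjusted p = 1.0, limma). Ccr1 was at 2.49 and 1.30 FPKM in controls and 1.08 and 0.648 FPKM in stimulated animals (log2 fold change -1.11, SE 0.44, adjusted p = 1.0, limma). Ccl19 was at 1.66 and 2.72 FPKM against 1.51 and 0.886 FPKM, and Ccl3 at 3.45 and 2.45 FPKM against 2.37 and 1.60 FPKM. Ccl27, 1 of the 2 higher genes, was at 2.79 and 3.13 FPKM in controls and 4.05 and 3.31 FPKM in stimulated animals. Macrophage marker sums, mostly Gpnmb, were 369 to 495 FPKM in controls against 339 and 142 FPKM in stimulated animals 1 and 2, and the neutrophil sum was 30.3 FPKM in stimulated animal 1 against 1.94 to 4.08 FPKM in the others. The part of neither was tested. Leaving out control 2 gave 7 genes under the threshold and leaving out control 1 gave 3, against 0.92% and 0.684% of all genes. Leaving out stimulated animal 1 or 2 gave 0, against 0.0526% and 0.138%.

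In caudal cord, 16 of the 52 genes (12 of the 32 tested) were higher and 2 (1 tested) were lower in both stimulated animals, against 18.5% and 6.07% of all genes. Of the higher genes, Ccl5, Ccl21, Ccl24, Ccr2, Ccr3, Cxcl1, Cxcl3, Cxcl6, Cxcl17 and Cxcr6 were under 1 FPKM in every library of region 5. Cxcl16 was at 7.31 and 6.84 FPKM in controls and at 11.4 and 9.68 FPKM in stimulated animals 1 and 2 (log2 fold change 0.57, SE 0.13, adjusted p = 1.0, limma). Ccl4 was at 1.62 and 1.32 FPKM against 2.48 and 2.50 FPKM (log2 fold change 0.77, SE 0.17, adjusted p = 1.0, limma), and Ccr1 at 0.934 and 0.997 FPKM against 1.55 and 1.34 FPKM (0.58, SE 0.15). Ccl21, the other ligand of Ccr7, was listed at 0.1 in 18 libraries and was above it only here, at 0.383 and 0.757 FPKM in stimulated animals 1 and 2. The fibroblast marker sum moved with these genes, at 44.8 and 47.3 FPKM in controls against 86.8 and 146 FPKM in stimulated animals. Dcn, Lum and Col3a1 were higher in both stimulated animals. Col1a1 overlapped, at 11.1 and 6.8 FPKM in controls 1 and 2 and at 10.1 and 20.3 FPKM in stimulated animals 1 and 2. The part of fibroblasts was not tested. Leaving out stimulated animal 1 or 2 gave 3 genes under the threshold each, against 0.966% and 0.782% of all genes.

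Read as pairs, ligands and receptors differed in how far both sides were measurable. Cx3cl1 and Cx3cr1 were both abundant in all 20 libraries, and so was Cxcl12, whose receptor Cxcr4 was at 0.723 FPKM or more. Cxcl16 was at 0.843 to 16.9 FPKM, whereas its receptor Cxcr6, a gene of T and NK cells, was under 0.6 FPKM outside the white matter of stimulated animal 2, where it was at 2.30 and 1.69 FPKM. Cxcr3 stayed at or under 0.530 FPKM although Cxcl10 reached 3.76 FPKM. Xcl1 peaked at 0.186 FPKM with Xcr1 at the floor, and Ccr6, the receptor of Ccl20, was above 0.132 FPKM only in the white matter of stimulated animal 2.

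Genes that act around the receptors were read from lists. Of 23 signalling genes, such as Gnai2, a G protein subunit that chemokine receptors use, 5 were higher and 10 lower in white matter than in cord, where 25.0% and 47.1% of all genes were, and 7 were higher and 2 lower at the lesion than in rostral cord, against 6.78% and 12.8%. Without the white matter of stimulated animal 2, 5 were higher and 16 lower in white matter, against 26.8% and 50.1%. With only the cord libraries 14 were higher and 2 lower at the lesion, against 14.1% and 17.3%, with a median log2 fold change of 0.39 against -0.02 for all genes. Adam10, a protease that sheds Cx3cl1 and Cxcl16, was at 22.3 to 26.1 FPKM in region 3 and at 27.3 to 34.6 FPKM in region 4 (log2 fold change 0.35, SE 0.12, adjusted p = 0.0434, limma). Ackr3, the atypical receptor that scavenges Cxcl12, was at 2.99 to 6.00 FPKM in all 20 libraries, with a log2 fold change of -0.08 (SE 0.17) at the lesion, which did not pass. Of the 3 shedding genes 1 was higher at the lesion and 0 lower, and of 5 tested atypical receptors and other ligands 1 was higher, Pf4, a platelet chemokine, and 0 were lower. Stimulation gave 0 adjusted calls in these lists in any region, in limma.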

How the data were processed

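RNA from 5 regions of 4 rats (20 libraries) was measured by sequencing of total RNA. The authors deposited FPKM values per gene, computed by Cufflinks from reads aligned to the rat Rnor6 genome. The submitters' processing notes name TopHat2 2.1.0, Cufflinks 2.2.1 and MultiQC 1.6, and the annotation release is not given in the sources used here. The deposited FPKM values have a floor of 0.1, where 39.7% of values lie, and carry no read counts, so the depth behind a gene is unknown and no counting interval is given. A fold against the floor has no fixed size, and a fold change here is on the scale of log2 FPKM with that floor, which understates changes of low genes. Near-identical genes (Cxcl1, Cxcl2 and Cxcl3, Ccl3 and Ccl4, Ccl2, Ccl7 and Ccl12) may share reads, and overlapping genes are likewise uncertain. Repeats of the groups are separate animals.

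Genes with at least 1 FPKM in any library were kept (15210 of 30443 rows). Columns matched samples by title, and 0 columns were left without one. Log2 values were fitted in R 4.3.3 with limma 3.58.1 (empirical Bayes with trend), with Benjamini-Hochberg adjustment over all genes kept and a threshold of 0.05. For stimulation, each region had its own fit of 2 against 2 libraries. Regions were compared in 1 model of all 20 libraries with no term for the animal. Libraries of the same animal were thus treated as independent, except where the animal is named as a replicate block. The fits were also run on simulated data with independent noise in each library and no animal effect. For stimulation within a region, 76% to 81% of planted log2 changes of 2 were recovered. Such data cannot show how the fits behave where libraries of an animal deviate together. Libraries of a region pair came from the same animals by their titles. Deviations of same-animal libraries from the mean of the 4 animals in each region correlated at 0.65 between the white matter regions. Any difference between stimulated and control animals is part of these deviations. Between cord regions the correlation was 0.23 (3 with 4), 0.08 (3 with 5) and 0 (4 with 5).

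Named genes were the 8 ligands and 8 receptors with the highest mean, up to 5 called genes in each direction of each region comparison, the 3 smallest p-values with a mean of at least 1 FPKM for stimulation in each region, and set ligand-receptor pairs. Motif letters were shortened by 1 base after a first search. Genes beyond this rule (such as Cxcl3, Cxcr1 and Ccl21) were named after their values were seen. In addition, 1 gene of the family is counted but not reported here. The genes and lists were chosen with earlier results of these data known. Alternatives were log2(FPKM + 1), no filter, a filter of 1 FPKM in 4 libraries, quantile and upper-quartile scaling, no trend, a replicate block, other models and leaving out each animal. Figures were drawn with matplotlib 3.10.9.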

Additional observations from a re-analysis of the deposited data

Results flagged for a closer look

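Dixon's ratio, the gap from a library to its nearest neighbour as a share of the range, was taken on log2 FPKM. The genes named for their level were tested in regions where their mean was at least 1 FPKM. In 8 of 47 tests, 1 library of 4 lay far from the other 3 by this ratio. Chance flags about 1 in 20 groups, a rate that cannot be set against this count, since the tests share libraries and a high library can itself bring a mean to 1 FPKM. Of the 8, 7 were libraries of stimulated animal 2 from white matter. In region 2 the ratio was 0.832 for Cxcl13, 0.841 for Cxcl16, 1.0 for Ccl2, 0.927 for Cx3cr1 and 0.921 for Cxcr4. In region 1 it was 0.845 for Ccl2 and 1.0 for Cxcr2. The other was Cxcl16 in region 3 at 0.861, where stimulated animal 1 was at 5.89 FPKM and the other 3 at 3.54 to 3.80 FPKM. For Ccl2 in region 2 and Cxcr2 in region 1 the other 3 libraries were listed at 0.1 FPKM, so the ratio is 1.0 by construction. No explanation of these values was tested.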

How the results depend on the processing

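Counts below are genes of the family under the threshold. Region 1 against region 2 had 4 and gave 0 with log2(FPKM + 1), 0 with no filter, 1 without the variance trend, 7 with the replicate block, 14 without the white matter of stimulated animal 2 and 0 to 13 leaving out an animal. The lesion against rostral cord had 4 and gave 18 without that white matter, 17 with the cord libraries only and 2 to 17 leaving out an animal. The lesion against caudal cord had 1 and gave 0 with quantile or upper-quartile scaling, 4 without that white matter, 4 with the cord libraries only and 0 to 6 leaving out an animal; with no filter the gene was Cxcr1 and not Ccl27. Caudal against rostral cord had 1 and gave 2 with log2(FPKM + 1), quantile or upper-quartile scaling, 3 with no filter, 12 without that white matter, 11 with the cord libraries only and 1 to 4 leaving out an animal. White matter against cord had 13 and gave 7 to 20 leaving out an animal. In each of these ranges the highest count came without stimulated animal 2.

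Stimulation had 0 in each region. Leaving out an animal gave 0 to 7 in region 1, 0 to 20 in region 2, 0 to 0 in region 3, 0 to 7 in region 4, 0 to 3 in region 5 and 0 to 2 for the difference of regions 1 and 2. Such a fit assumes that the lone animal varies like the other group. The replicate numbers of control and stimulated animals mark no shared litter or day, and deviations of same-numbered animals correlated at -0.21, -0.10, -0.11, 0.32 and -0.16 in regions 1 to 5. A replicate block on them gave 7 in region 5 and 1, Cxcl13, for the difference of regions 1 and 2, and changed no other stimulation count. The crossed pairing, chosen after seeing the data, gave 6 in region 4. The cause of these moves was not tested.

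Quantile normalization moved the median log2 fold change of all genes from -0.18 to -0.04 for white matter against cord, from -0.14 to -0.03 for the lesion against caudal cord and from 0.11 to -0.02 for caudal against rostral cord. Of 442 named fold changes recomputed over all settings, 381 kept their direction and side of the threshold, 57 lost the threshold, 4 passed it newly and 0 reversed. The named stimulation fold changes had not passed to begin with, so they could not lose the threshold and mostly counted as kept. All 57 losses thus fell on the comparisons of regions, and the 381 overstate how stable those were. Animals, 2 a group, and the unknown depth of each gene limit the precision.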

Other observations

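Cxcl17, a mucosal chemokine, was listed at 0.1 FPKM in all 5 libraries of control 1. In the 15 libraries of the other 3 animals it was at 0.192 to 1.75 FPKM. Its highest white matter values were those of stimulated animal 2, at 0.949 FPKM in region 1 and 1.75 FPKM in region 2, where the other animals were at 0.398 FPKM or less and 0.233 FPKM or less.

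Ccl17, a ligand of Ccr4, was low throughout and highest in region 2 of the stimulated animals, at 0.919 and 0.993 FPKM in animals 1 and 2 against 0.173 and 0.330 FPKM in controls 1 and 2. The gene was under the filter, and in the fit with no filter it had a log2 fold change of 2.00 (SE 0.52, adjusted p = 1, limma). Its receptor Ccr4 was above the floor in 2 libraries, both white matter of stimulated animal 2, at 0.237 and 0.205 FPKM.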
